A study of Homo sapiens with 8 samples.

Results

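The genes described here are 6 genes of growth factor signalling in clones of the human prostate cancer line PC-3: the receptor genes MET, EGFR, AXL and FGFR2 and the ligand genes KITLG and FGF2. They are 6 of 14884 genes measured on 8 microarrays, and each was read by 1 probe set, a group of probes for a transcript. The study asked what changes when RWDD4, which codes for an RWD domain protein, is overexpressed. In the RWDD4 group, 4 clones (17, 24, 5 and 6) carried a p-Lenti vector with RWDD4. In the control group, 4 clones (2, 3, 4 and 5) carried the p-Lenti vector with no insert. All 8 were selected with blasticidin and grown from single isolates, so each value belongs to 1 clone of 1 cell line, and the clone number 5 in both groups names different clones. The 6 genes were chosen by their log2 values in these 8 clones, that is by how they differed between the 2 groups. Their differences are therefore given as a description, with no test, and tests are kept for other genes of the pathway and for the genes next to them on the chromosome.

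MET, EGFR, AXL and FGFR2 are receptor tyrosine kinases, proteins that span the cell membrane, bind a ligand outside and phosphorylate themselves and partner proteins inside. Adaptor proteins then pass the signal to RAS and the MAP kinases, to phosphoinositide kinases and to STAT factors, while inhibitors and receptor degradation end it. MET is the receptor of hepatocyte growth factor (HGF), EGFR of epidermal growth factor and its relatives, and AXL of GAS6. FGFR2 binds several fibroblast growth factors, of which FGF2 is one of the best known, and KITLG (stem cell factor) is the ligand of the receptor KIT. MET, EGFR and AXL are widely expressed in prostate cancer lines that grow without androgen, PC-3 among them.

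The bases just before the start of MET, EGFR and KITLG, the 3 genes of the largest difference, and of FGFR2, the 1 gene that was lower, are shown because transcription can begin there. Several starts were listed for EGFR (2), AXL (2) and FGFR2 (5), and the outermost was used. Which start was in use in these clones was not determined. Sequences are from RefSeq (build GRCh38.p14), 5′ to 3′ on the strand of the gene, and end at the gene's outermost annotated start. Capitals mark a GC box (GGGCGG on either strand), the site bound by SP1-type factors, or a TATA box (TATAAA on either strand).
MET, chr7:116671946-116672195, plus strand: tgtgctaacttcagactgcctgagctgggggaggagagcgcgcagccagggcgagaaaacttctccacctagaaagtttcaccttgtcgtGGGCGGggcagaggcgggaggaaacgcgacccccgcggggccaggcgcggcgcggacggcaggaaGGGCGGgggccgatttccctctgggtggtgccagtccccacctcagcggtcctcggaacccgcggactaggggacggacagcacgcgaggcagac
EGFR, chr7:55018767-55019016, plus strand: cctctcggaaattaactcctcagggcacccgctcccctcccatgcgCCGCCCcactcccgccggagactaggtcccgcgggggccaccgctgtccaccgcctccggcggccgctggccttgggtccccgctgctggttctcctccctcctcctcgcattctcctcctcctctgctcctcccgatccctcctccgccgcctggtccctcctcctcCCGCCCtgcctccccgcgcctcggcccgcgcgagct
KITLG, chr12:88580472-88580721, minus strand: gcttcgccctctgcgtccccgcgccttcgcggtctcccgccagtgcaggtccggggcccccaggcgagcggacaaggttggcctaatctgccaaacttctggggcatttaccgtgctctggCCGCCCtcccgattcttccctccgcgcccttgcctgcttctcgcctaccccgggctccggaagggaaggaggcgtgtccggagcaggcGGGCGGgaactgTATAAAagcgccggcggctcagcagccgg
FGFR2, chr10:121598459-121598694, minus strand: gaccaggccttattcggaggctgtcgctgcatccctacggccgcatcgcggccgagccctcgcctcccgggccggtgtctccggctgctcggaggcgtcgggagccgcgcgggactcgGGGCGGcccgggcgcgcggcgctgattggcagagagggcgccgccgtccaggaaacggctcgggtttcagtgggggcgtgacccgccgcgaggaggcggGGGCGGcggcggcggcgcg
All 4 stretches held 2 GC boxes each. Over the 250 bases before the start site listed for each gene, all 6 genes held GC boxes (2 in MET, EGFR, KITLG and AXL, 3 in FGF2 and FGFR2), against 42.2% of the 27305 promoters of that length in the table. For FGF2 and FGFR2 this site lies past the outermost annotated start. Only 101 and 236 of their 250 bases lie before that start, with 2 whole GC boxes each. KITLG alone of the 6 held a TATA box, 29 bases before the start, a motif found in 11.2% of promoters. FGFR2, the gene that was lower, alone held a CCAAT box (CCAAT on either strand; 33.0% of promoters). No match to the AP-1 motif TGANTCA (6.57% of promoters) or the TEAD motif GGAATG on either strand (12.0%) lay in these windows of the 6 genes. The windows were rich in G and C, from 64.4% in AXL to 78.4% in FGFR2, against a median of 57.6% over all promoters. A match is a description of the letters, and binding was not measured.

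RWDD4 itself, the check of the labels, did not overlap between the groups: its mean log2 value was 10.30 (SD 0.29) with the insert and 7.36 (SD 0.58) without it, with n = 4 each. The difference was 2.94 (SE 0.25), with an adjusted p of 5.98e-05 by limma. The 2 groups differed in much of what was measured: 46.7% of the 14884 genes passed at an adjusted p under 0.05, 25.1% higher and 21.6% lower in the RWDD4 clones. The 3741 higher and 3214 lower genes became 3307 and 5765 when each array was centred on its median, which moved the median difference of all genes from -0.08 to -0.21. Markers expected in PC-3 were present: the keratins KRT8, KRT18 and KRT19 and EPCAM, VIM and CD44, 6 of 7 listed, lay above the median of all probe sets (4.92), whichever group was taken. KRT8, KRT18 and KRT19 fell, by 0.28, 0.40 and 0.54, and VIM and CD44 both rose by 0.73, while EPCAM did not pass. KLK3 and KLK2 were the 2 measured of 6 genes listed as lost or silent in PC-3. They lay above that median too, at 5.49 to 6.10 and 5.68 to 5.95, and did not pass. A level above that median is therefore no mark of expression. Of the genes listed as markers of other cells, DCN and VWF (stroma and vessel) and CD14 (blood) lay below that median, and CD68 and PECAM1 above it. CD14, CD68 and VWF fell, by 0.42, 0.39 and 0.31. The summed level of the 2 measured of 5 blood markers was 14.1 to 14.7 in the RWDD4 and 14.6 to 15.4 in the control clones, and that of the 3 measured of 6 stroma and vessel markers 12.5 to 13.0 and 12.8 to 13.8. Both sums overlapped between the groups, and their part in the results was not tested. Each clone was grown from a single isolate of 1 cell line, so these levels are read as levels in the clones, not as numbers of other cells. In bulk RNA, a change in all cells of a clone and a change in some of them cannot be told apart.

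MET, EGFR, AXL, KITLG and FGF2 were higher in the RWDD4 clones and FGFR2 was lower. The groups did not overlap in any of the 6, which was also the case for 44.8% of all genes (23.7% with the RWDD4 clones higher and 21.1% lower). A difference of at least 1 log2 unit upward, as MET, EGFR, KITLG, FGF2 and AXL had, was found in 9.74% of all genes. Since the genes were picked for this difference, nothing is read from these counts. The values are log2 values per clone. They serve to compare 1 gene between clones, not different genes with each other.

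MET lay at 10.34, 10.21, 10.63 and 10.58 in RWDD4 clones 17, 24, 5 and 6, and at 7.83, 9.04, 8.66 and 9.11 in control clones 2, 3, 4 and 5. The 4 RWDD4 clones were close together, whereas control clone 2 was lower than the other control clones. The means were 10.44 ± 0.20 and 8.66 ± 0.59 (SD, n = 4 each), a difference of 1.78 (SE 0.24), or 3.44-fold. The gap between the lowest RWDD4 clone and the highest control clone was 1.10 log2 units, the widest among the 6 genes.

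EGFR lay at 8.30, 7.78, 8.35 and 8.91 in RWDD4 clones 17, 24, 5 and 6. In control clones 2, 3, 4 and 5 it lay at 6.50, 7.05, 6.91 and 7.14. Here the RWDD4 clones were the more spread of the groups, with clone 24 lowest and clone 6 highest. The means were 8.33 ± 0.46 and 6.90 ± 0.28 (SD, n = 4 each), a difference of 1.43 (SE 0.22), or 2.70-fold.

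AXL, the receptor of the TAM family named for TYRO3, AXL and MERTK, lay at 11.55, 11.01, 11.19 and 11.48 in RWDD4 clones 17, 24, 5 and 6. In control clones 2, 3, 4 and 5 it lay at 10.06, 10.19, 10.26 and 10.52. Of the 5 genes that were higher it had the smallest difference, 1.05 (SE 0.14), or 2.07-fold. Its groups were the closest of those 5, with a gap of 0.49 log2 units between clone 24 of the RWDD4 group and clone 5 of the control group.

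FGFR2, a receptor of several fibroblast growth factors whose splice forms are typical of epithelial or mesenchymal cells, went the other way. It lay at 4.68, 4.43, 4.54 and 4.51 in RWDD4 clones 17, 24, 5 and 6. In control clones 2, 3, 4 and 5 it lay at 5.07, 4.89, 5.11 and 4.84. The means were 4.54 ± 0.11 and 4.98 ± 0.13 (SD, n = 4 each), a difference of -0.44 (SE 0.10), or 1.35-fold lower. Its values were dim: the mean of the RWDD4 clones was below the median of all probe sets (4.92) and that of the control clones just above it. No background level was measured here, and the probe set does not part the splice forms.

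KITLG, the ligand of KIT, lay at 7.27, 6.57, 7.38 and 7.48 in RWDD4 clones 17, 24, 5 and 6. In control clones 2, 3, 4 and 5 it lay at 4.94, 5.71, 5.40 and 5.31. RWDD4 clone 24 stood 0.86 above the highest control clone and below the other 3 RWDD4 clones. The means were 7.17 ± 0.41 and 5.34 ± 0.32 (SD, n = 4 each). The difference of 1.83 (SE 0.21), or 3.56-fold, was the largest of the 6. The control mean lay below the range of KLK3 (5.49 to 6.10), a gene listed as silent in PC-3. Whether KITLG was expressed in the control clones was not tested.

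FGF2, a ligand of fibroblast growth factor receptors, lay at 7.87, 7.91, 8.10 and 8.39 in RWDD4 clones 17, 24, 5 and 6. In control clones 2, 3, 4 and 5 it lay at 6.39, 7.16, 6.55 and 6.94. Control clones 2 and 4 were low and 3 and 5 high, which left the control group more spread (SD 0.35) than the RWDD4 group (SD 0.23). The difference was 1.31 (SE 0.18), or 2.48-fold.

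**Figure D1:**
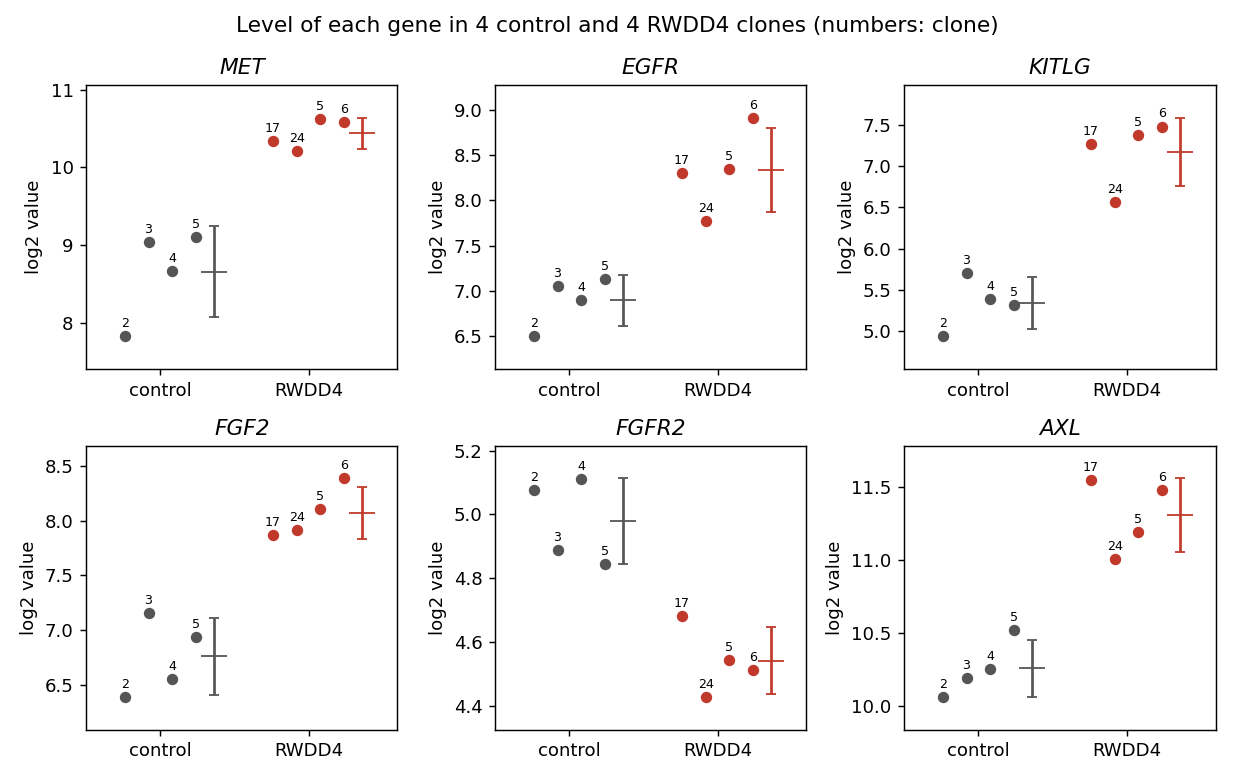
Log2 value of each of the 6 genes (vertical axis, own scale per panel) in the control clones (grey) and RWDD4 clones (red), 4 each, with the clone number above each point and the group mean ± SD beside the points. The groups are apart in all 6 panels. In 5 panels the RWDD4 clones are higher, and FGFR2, at 4.43 to 4.68 against 4.84 to 5.11, is lower.

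Within the groups, control clone 2 was the lowest control clone for MET, EGFR, AXL, KITLG and FGF2, that is for 5 of 6 genes. Over all genes it was the lowest control clone for 35.7%. In the RWDD4 group, clone 24 was the lowest for MET, EGFR, AXL, KITLG and FGFR2, again 5 of 6, against 27.0% of all genes, and clone 17 was the lowest for FGF2. Clone 6 was the highest RWDD4 clone for EGFR, KITLG and FGF2, clone 5 for MET, and clone 17 for AXL and FGFR2. The genes of a clone share 1 array and 1 RNA sample, so these counts are a description.

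After each gene was centred on its own mean, the profiles of EGFR and FGF2 over the 8 clones were the most alike of any pair, with a root mean square difference of 0.22 log2 units. AXL was nearest to FGF2 and EGFR (0.29 and 0.30) and farthest from MET among the genes that were higher (0.49). FGFR2 differed from the other genes by 0.77 to 1.19.

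Among all protein-coding genes, those with the profile most like that of MET were ZNF770, EML4 and USP47, with root mean square differences of 0.07 to 0.08 log2 units over the 8 clones. For EGFR they were TBC1D31, LPGAT1 and NOL9 (0.12 to 0.14), and for KITLG they were UBE4A, WDR3 and ZFR (0.13 to 0.15). For FGF2 they were ARHGAP21, PTAR1 and FNIP1 (0.07 each), and for AXL they were THOC7, SDCBP and OSBPL3 (0.08 to 0.09). The nearest genes to FGFR2 were EPOP, RAPSN and DDX54, at 0.03 to 0.05. None of these 18 genes was among the growth factor receptors, ligands or relay genes listed for this study. They were the nearest of all protein-coding genes, far more than the 6, so closer profiles outside the set were likely from the start. The distance also follows the difference between the groups, by which the 6 were chosen. Nothing is therefore read from it about the pathway.

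The differences of the 6 genes were set beside the genomic span of each gene, since over all genes the difference followed span. The median difference was -0.22 in the second decile of span and 0.24 in the ninth, and 4.77% and 46.6% of the genes in these deciles rose. MET (126 kb), KITLG (87.7 kb) and FGFR2 (120 kb) fall in the ninth decile, EGFR (193 kb) in the longest, FGF2 (71.6 kb) in the eighth and AXL (42.5 kb) in the seventh. MET and KITLG lay above the 90th percentile of their decile (1.42), EGFR above that of its own (1.21), and FGF2 and AXL below theirs (1.31 and 1.27), FGF2 only just. FGFR2 lay below the 10th percentile of the ninth decile (-0.28). With the trend over span removed from each array, the difference was 1.51 for MET, 1.16 for EGFR, 0.90 for AXL, 1.58 for KITLG and 1.08 for FGF2, and -0.71 for FGFR2.

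**Figure D2:**
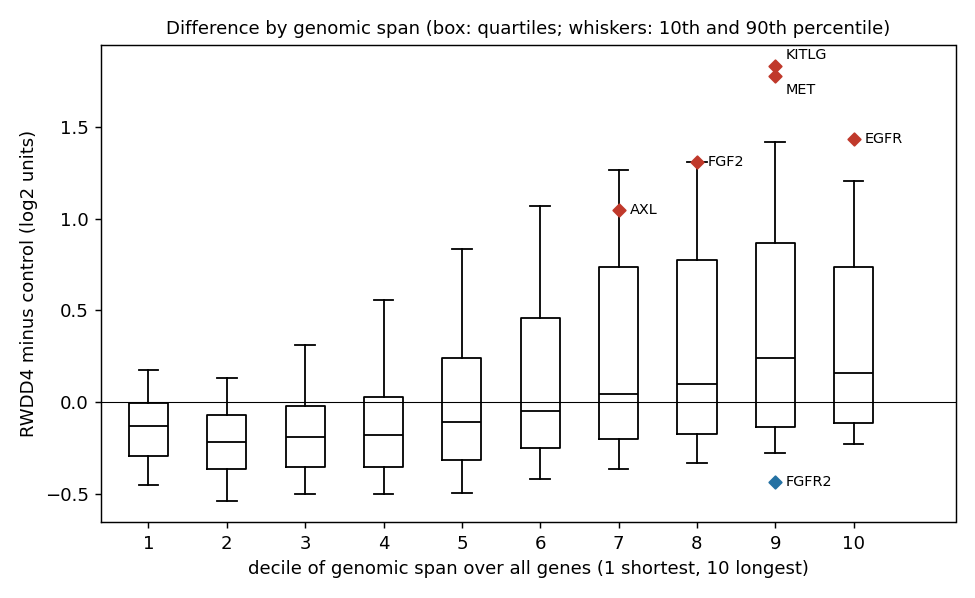
Difference between RWDD4 and control clones (log2 units, vertical axis) by decile of genomic span over 14884 genes (horizontal axis); boxes show the quartiles and median, whiskers the 10th and 90th percentile, and diamonds the 6 genes. Medians go from -0.22 in the second decile to 0.24 in the ninth. FGFR2, at -0.44, lies below the whisker of the ninth decile, in which 46.6% of genes rose.

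The differences also moved with the leading axis of variation among clones of the same group. Control clone 2 lay at -1.77 on this axis (in SD units over the 8 arrays), the other control clones at -0.74 to -0.37 and the RWDD4 clones at 0.60 to 1.09. With the position of each array in the fit, the difference shrank to 0.29 (SE 0.18) for MET, 0.46 (SE 0.35) for EGFR, 0.46 (SE 0.26) for FGF2 and -0.23 (SE 0.20) for FGFR2. KITLG and AXL kept more of theirs, at 0.95 (SE 0.36) and 0.65 (SE 0.28). The groups do not overlap on this axis, so the part of a difference that belongs to the axis and the part that belongs to RWDD4 cannot be told apart. Leaving out control clone 2, the clone farthest out, gave 1.51 for MET, 1.30 for EGFR, 0.98 for AXL, 1.70 for KITLG, 1.19 for FGF2 and -0.41 for FGFR2. Over all 8 ways to leave out 1 clone, MET ranged from 1.51 to 1.93, KITLG from 1.70 to 2.03 and FGFR2 from -0.48 to -0.39.

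**Figure D3:**
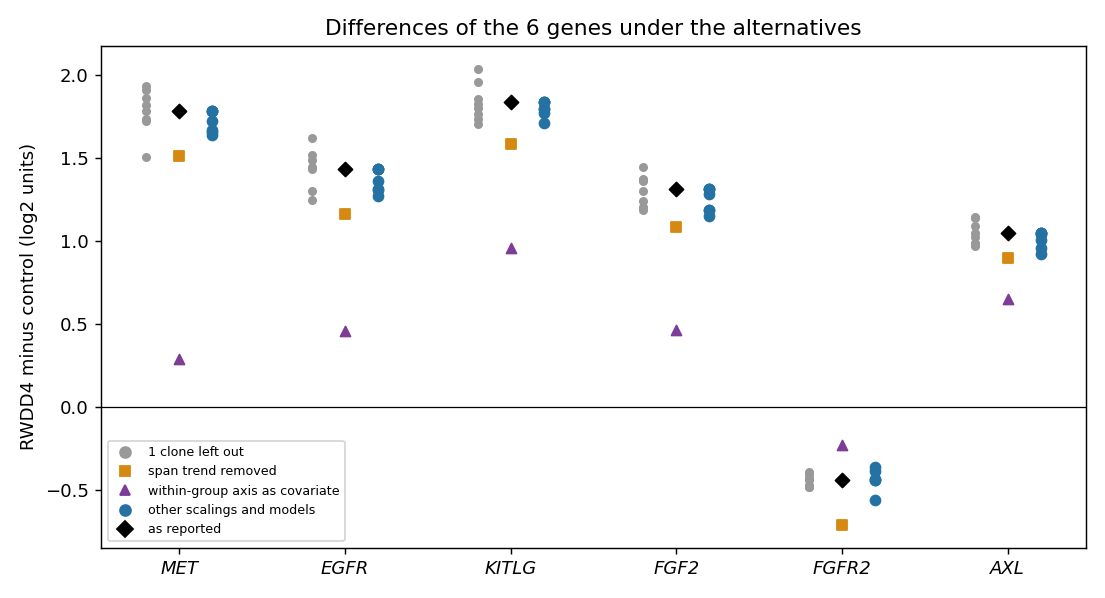
Difference between RWDD4 and control clones (log2 units, vertical axis) for each of the 6 genes as reported (black diamond), with 1 clone left out (grey), with other scalings and models (blue), with the trend over genomic span removed (orange square) and with the within-group axis in the fit (purple triangle). All keep their side of 0. The purple triangles lie nearest to 0 for each gene, at 0.29 for MET and -0.23 for FGFR2.

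The receptors and ligands that work with these 6 genes changed in both directions. Of 20 such partner genes 17 were measured. Of these, 3 rose (BTC, PROS1 and MERTK), 6 fell (MST1R, ERBB3, KIT, FGFR3, FGFR4 and TYRO3) and 8 did not pass, a share of 52.9% passed against 46.7% of all genes. The median difference was -0.13, against -0.08 for all genes. ERBB2, TGFA and AREG were not analysed here.

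In the HGF arm, MST1R, the receptor of macrophage-stimulating protein and the closest relative of MET, fell by 0.64 (SE 0.16, adjusted p = 0.00692). It lay at 7.74, 7.36, 7.06 and 7.55 in RWDD4 clones 17, 24, 5 and 6 and at 8.24, 8.29, 7.83 and 7.94 in control clones 2, 3, 4 and 5. The groups did not overlap, as was the case with the RWDD4 clones lower for 21.1% of all genes. MET was chosen for its difference between the groups, so nothing is read from the opposite directions of MST1R and MET. HGF, the ligand of MET, lay at 3.55 to 4.00 over all 8 clones, below the median of all probe sets, with a difference of -0.13 (adjusted p = 0.345). With the span trend removed HGF passed, at -0.36 (adjusted p = 0.0304).

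In the EGF arm, the ligand BTC (betacellulin) rose. It lay at 5.74, 5.47, 5.68 and 5.67 in RWDD4 clones 17, 24, 5 and 6 and at 4.61, 4.75, 4.96 and 4.65 in control clones 2, 3, 4 and 5, a difference of 0.90 (SE 0.11, adjusted p = 1.26e-04), with the control mean below the median of all probe sets. The groups of BTC did not overlap, as was the case with the RWDD4 clones higher for 23.7% of all genes. EGFR, its receptor, was chosen for its difference between the groups, so nothing is read from their shared direction. ERBB3, which pairs with other receptors of the family and has little kinase activity of its own, fell by 0.37 (adjusted p = 0.0276). Its groups overlapped, and it did not pass without RWDD4 clone 17 (adjusted p = 0.0682) or 5 (0.0821), nor without control clone 3 (0.0676) or 4 (0.0773). HBEGF, EGF, EREG and ERBB4 did not pass, at 0.18, 0.09, 0.17 and 0.08, and EGF, EREG and ERBB4 were dim (below the median of all probe sets whichever group was taken).

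KIT, the receptor of KITLG, fell by 0.42 (SE 0.12, adjusted p = 0.0162). Its values were low in both groups, from 3.45 to 3.85 in the RWDD4 clones and from 3.91 to 4.36 in the control clones, all below the median of all probe sets. The ligand was thus higher in clones in which the receptor gave a dim signal.

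Of the other fibroblast growth factor receptors, FGFR4 and FGFR3 fell as FGFR2 was lower. FGFR4 lay at 6.26, 6.45, 6.20 and 6.20 in RWDD4 clones 17, 24, 5 and 6 and at 7.02, 7.01, 6.78 and 6.84 in control clones 2, 3, 4 and 5. The difference was -0.63 (SE 0.10, adjusted p = 5.58e-04), and the groups were apart. FGFR3 fell by 0.36 (adjusted p = 0.0294), with overlapping groups. FGFR3 did not pass with the span trend removed (adjusted p = 0.0681), nor without RWDD4 clone 17 (0.0701), 24 (0.0667) or 5 (0.0753), nor without control clone 2 (0.0512) or 4 (0.0800). FGFR1 and the ligand FGF1 did not pass, at -0.13 and -0.23. After median centring both passed, at -0.25 and -0.35, and so they did with the span trend removed, at -0.33 and -0.49.

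In the TAM arm the 3 receptors parted. MERTK, which helps cells take up dying neighbours, rose by 0.68 (SE 0.17, adjusted p = 0.00726), from a range of 6.36 to 7.04 in the control clones to one of 7.04 to 7.69 in the RWDD4 clones, with the groups nearly touching. With the within-group axis described above in the fit its difference was -0.03. TYRO3 fell by 0.57 (SE 0.12, adjusted p = 0.00323), from 7.62 to 8.08 in the control clones to 7.04 to 7.35 in the RWDD4 clones. PROS1 (protein S), a ligand of MERTK and TYRO3, lay at 5.21, 5.14, 5.63 and 5.50 in RWDD4 clones 17, 24, 5 and 6 and at 4.13, 4.11, 4.48 and 4.14 in control clones 2, 3, 4 and 5. It rose by 1.15 (SE 0.13, adjusted p = 1.21e-04 by limma), with the control mean below the median of all probe sets. GAS6, the ligand of AXL, lay at 8.75 in RWDD4 clone 24 and at 6.88 to 7.59 in the other 3 RWDD4 clones, against 7.36 to 7.87 in the control clones, and did not pass (adjusted p = 0.943).

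**Figure D4:**
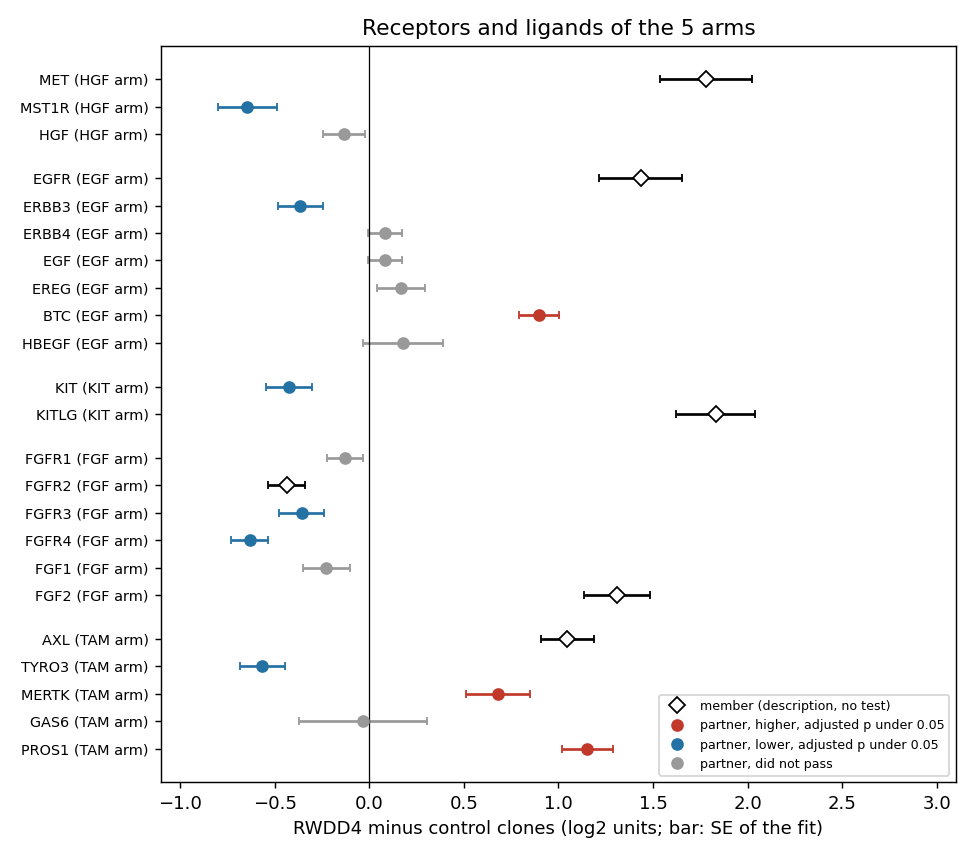
Difference between RWDD4 and control clones (log2 units, horizontal axis; bars are the SE of the fit, n = 4 clones each) for the 6 genes (open diamonds, described without a test) and the 17 measured partner genes (circles; red higher, blue lower, grey did not pass). Within each of the HGF, EGF, KIT, FGF and TAM arms genes lie on both sides of 0, for example AXL at 1.05 and TYRO3 at -0.57.

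Beyond the partners, 5 lists of pathway genes by role were described, with partner receptors and ligands included and the 6 genes left out. Of 256 listed genes 202 were measured. Most lists hold long genes. In the order given below, their median spans were 57.5, 23.6, 56.0, 87.6 and 47.5 kb, against 20.7 kb for all genes. In the eighth decile of span (47.1 to 75.2 kb), 40.1% of all genes rose and 14.8% fell. The shares of the lists were not matched for span and are a description. Of the 31 measured receptor tyrosine kinases (ephrin receptors were not listed), 4 rose and 13 fell, a share of 54.8% passed against 46.7% of all genes, with a median difference of -0.20 against -0.08. The rises were ROR1 at 0.79, MERTK, RYK at 0.63 and LMTK2 at 0.35; ROR1 and RYK are receptors of WNT proteins. Of the falls, the collagen receptor DDR1 was the largest, at -0.72 (SE 0.12, adjusted p = 7.53e-04), ahead of MST1R, FGFR4 and TYRO3. LMTK2 did not pass after quantile normalization (0.15, adjusted p = 0.252), median centring (0.23, 0.0741) or cyclic loess (0.23, 0.0961), nor with the span trend removed (0.09, 0.486). It also did not pass without RWDD4 clone 17 (adjusted p = 0.0618) or 6 (0.0612) or control clone 4 (0.0557), and it turned to -0.13 with the within-group axis in the fit. The count of falls was 7 without RWDD4 clone 17 or control clone 4, and 8 without RWDD4 clone 24, RWDD4 clone 5 or control clone 3. IGF1R and INSR, the receptors of insulin-like growth factors and insulin, did not pass, at -0.10 and 0.02.

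Of 53 measured ligands 5 rose and 11 fell (30.2% passed), with a median difference of -0.13. Beside PROS1 and BTC, the platelet-derived growth factor gene PDGFC rose by 0.76 (adjusted p = 1.10e-04) and FGF5 by 0.69 (0.0132; 0.0526 after quantile normalization). The largest falls were those of FLT3LG (-0.74), NRTN (-0.70), FGF4 (-0.54) and VEGFB (-0.54), ligands of FLT3, RET, fibroblast growth factor receptors and FLT1. NRTN turned to 0.0113 with the within-group axis in the fit. FGF2 and FGF5 were thus higher while FGF4, FGF8, FGF18 and FGF19 fell. The means of these latter were 5.76, 5.59, 5.15 and 5.93 in the RWDD4 clones and 6.30, 6.10, 5.65 and 6.26 in the control clones. Those of the RWDD4 clones were within or below the range of KLK3 (5.49 to 6.10), a gene listed as silent in PC-3. Whether these ligands were expressed was not tested. Of the 53 ligands 18 were dim, and none of those 18 passed by limma. After median centring 22 ligands fell, and 20 fell with the span trend removed.

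Of 39 measured coreceptors and genes of ligand processing and shedding, 13 rose and 10 fell (59.0% passed; median -0.13). The membrane proteases ADAM9, ADAM10 and ADAM17, the last 2 of which release ligands of EGFR from the cell surface and can cut MET and AXL, rose by 1.39, 1.23 and 0.92 (adjusted p = 0.00172, 0.00177 and 0.0109). HS2ST1, which adds sulfate to the heparan chains that FGF2 needs to bind its receptor, rose by 1.21. With the within-group axis in the fit none of these 4 passed and all turned sign, to -0.225, -0.0303, -0.351 and -0.0106. The falls were led by the heparan sulfate proteoglycan HSPG2 (-0.81), the proprotein convertase FURIN (-0.73), RHBDF1, a partner of ADAM17 (-0.54), and the syndecan SDC4 (-0.52). With the span trend removed 8 rose and 18 fell, and after median centring 18 fell.

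Of 39 measured adaptors and relay genes 11 rose and 8 fell (48.7% passed; median -0.09). YES1, a kinase of the SRC family, rose by 2.26 (SE 0.35, adjusted p = 5.06e-04), and lay at 9.52 to 9.88 in the RWDD4 clones and at 6.18 (clone 2) to 8.21 in the control clones. The RAS exchange factors SOS1 and SOS2, which activate RAS at the receptor, rose by 1.86 and 1.29, and DOCK1, an activator of RAC, by 1.19. GAB1, the docking protein of MET, rose by 1.13 (adjusted p = 0.00115). The falls were led by RRAS (-0.98), GRB7 (-0.79), DOK4 (-0.77) and SHC1 (-0.60), and GRB2, which links SOS to the receptor, fell by 0.22. After median centring 14 fell, and 17 fell with the span trend removed.

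Of 40 measured feedback inhibitors and genes of receptor turnover 16 rose and 8 fell (60% passed), and this list alone had a median above 0, at 0.18. The eighth decile of span, which holds the median span of this list, had a median difference of 0.10 over all genes. SOCS4 rose by 1.79, STAM2, which sorts receptors on endosomes, by 1.64, NF1, which switches RAS off, by 1.63, and USP8, which removes ubiquitin from EGFR, by 1.62. With the within-group axis in the fit SOCS4 turned to -0.024. EPS15, named as a substrate of EGFR and active in its uptake, rose 2.83-fold (adjusted p = 6.18e-05), and LRIG2 by 1.58 log2 units. SOCS3 (-0.87), RNF126 (-0.68), ANKRD13B (-0.63) and HGS (-0.54) led the falls. With the span trend removed 13 of the list fell. GAB1, EPS15, LRIG2, GRB2, IGF1R, INSR, FGF8, FGF18 and FGF19 lie outside the rule for named genes; they were picked with their values in view. With the axis in the fit, 0 of the 202 genes of the 5 lists passed by limma, and 27 had an unadjusted p under 0.05.

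**Figure D5:**
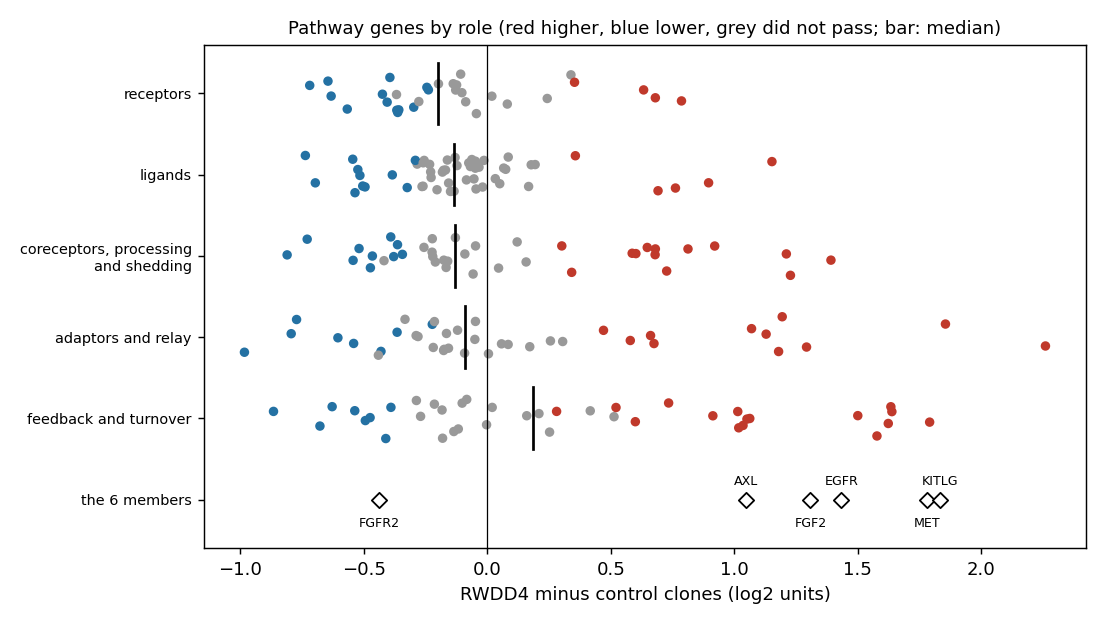
Difference between RWDD4 and control clones (log2 units, horizontal axis) of every measured gene of 5 pathway lists, with the list median as a black bar; red genes rose, blue genes fell and grey genes did not pass by limma at an adjusted p under 0.05. The 6 genes described are the open diamonds of the lowest line. Medians lie between -0.20 for receptors and 0.18 for feedback inhibitors and turnover.

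The genes next to the 6 on their chromosomes were examined because position had no part in choosing them. Among the 2 nearest measured protein-coding genes on each side, 24 genes in all, 10 rose, 2 fell and 12 did not pass. That is 50.0% passed, against 46.7% of all genes, with a median difference of 0.18. Beside MET, TES, a focal adhesion gene, rose by 1.04 and ST7 by 0.51, while WNT2 fell by 0.47 at a level below the median of all probe sets and TFEC did not pass (0.04). Beside EGFR, LANCL2 rose by 0.48 and POM121L12 fell by 0.36, while VSTM2A and SEPTIN14, both dim, did not pass (-0.24 and -0.13). With the span trend removed the calls of LANCL2 and POM121L12 were lost (adjusted p = 0.0671 and 0.185), and VSTM2A and SEPTIN14 passed (-0.31 and -0.36, adjusted p = 0.0461 and 0.00436). Those latter also passed after median centring (-0.37 and -0.26, adjusted p = 0.0245 and 0.0275).

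Beside KITLG, TMTC3 rose by 2.03, which is more than KITLG itself, and POC1B-GALNT4 by 1.40, while DUSP6 (-0.10) and CEP290 (0.50, dim) did not pass. CEP290 passed after quantile normalization (0.56, adjusted p = 0.0396), after cyclic loess (0.58, 0.0373) and without RWDD4 clone 17 (0.69, 0.0109). Beside FGF2, AFG2A rose by 1.04. NUDT6, which lies on the opposite strand and overlaps FGF2, lay at 5.14 to 5.35 in the RWDD4 clones and at 4.93 to 5.12 in the control clones, a difference of 0.20 that did not pass (adjusted p = 0.0782), and IL21 (-0.04) and BBS12 (-0.12) did not pass either. BBS12 passed after median centring (-0.25, adjusted p = 0.0473) and with the span trend removed (-0.28, 0.0290). NUDT6 passed after quantile normalization (0.24, adjusted p = 0.0478), after cyclic loess (0.27, 0.0272) and with array weights (0.23, 0.0484).

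FGFR2 stood apart from its neighbours in direction. WDR11 rose by 1.49, ATE1 by 1.39 and NSMCE4A by 0.96 (adjusted p = 9.92e-05, 1.05e-04 and 9.75e-05), and the fourth neighbour, PLPP4, did not pass (0.16). ATE1 lay at 6.77 to 7.36 in the RWDD4 clones and at 5.46 to 6.01 in the control clones. Beside AXL, HNRNPUL1 rose by 0.30, and ACTMAP (-0.28), SNRPA (0.11) and CCDC97 (-0.20) did not pass. ACTMAP passed after median centring (-0.41, adjusted p = 0.0477) and CCDC97 after quantile normalization (-0.36, 0.0418). HNRNPUL1 did not pass after quantile normalization (adjusted p = 0.0853), after median centring (0.118), with the span trend removed (0.224), or without RWDD4 clone 5 (0.0547), RWDD4 clone 6 (0.0568) or control clone 2 (0.0517), and it turned to -0.0123 with the axis in the fit. Falls among the 24 neighbours numbered 6 after median centring, 4 with the span trend removed and 1 among genes above the median level. With the axis in the fit 0 of 24 passed by limma, and 6 had an unadjusted p under 0.05.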

How the data were processed

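RNA of 8 PC-3 clones was labelled with biotin and hybridised to 1 Affymetrix array per clone, per the labels. The log2 values used were deposited by the authors. Partek and RMA are named in the submitters' processing notes; RMA corrects the background, normalizes arrays to each other and summarises probes on a log2 scale; no version, setting or genome build is given in the sources used here. Small differences near the background are compressed. The table held 53617 probe sets, of which 16098 had exactly 1 gene symbol, 0 had several and 37519 were unlisted. They stood for 14884 genes, all matched by gene ID to a RefSeq table (GRCh38.p14), used for names, span and neighbours. The probe set of highest mean stood for a gene. No 2 arrays held identical values (0 of 28 pairs), and the number of arrays limits the precision.

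RWDD4 minus control clones was fitted for all genes in R 4.3.3 (limma 3.58.1: lmFit, then eBayes), two-sided, without covariates, with Benjamini-Hochberg adjustment over 14884 genes. A gene rose, fell or passed at an adjusted p under 0.05. Clones share a line and p-values measure the spread between these clones. The 6 genes and the lists were chosen with earlier results of these data known. Genes named were the 6, RWDD4, the partners, for each list the up to 4 largest rises and falls without overlap of the groups, the neighbours, and the 3 nearest profiles per gene. Alternatives were other scalings, variance models, probe set rules, a level filter, removal of a lowess trend over span (0.3), the within-group axis and leaving out each clone. Promoter windows were 250 bases, and all 6 genes matched. On simulated data for this comparison over 14884 genes, 49.3%, 91.0% and 100% of genes changed by 0.5, 1 and 2 log2 units were recovered, with 8 of 168 calls false. The simulation changed only 67, 67 and 66 genes by these sizes, whereas 46.7% of genes passed in the data. Its noise was drawn for each gene separately, without the axis that genes share in the data. These rates therefore check the code and do not give the error rate here.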

Additional observations from a re-analysis of the deposited data

Results flagged for a closer look

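Of 164 groups of 4 clones, 12 held a clone far from the other 3 of its group, where chance flags about 1 in 20. The groups are those of 82 genes, the 6 genes described and 76 others (RWDD4 and the partner, list and neighbour genes named by rule), with other named genes not examined. None of them was a group of the 6 genes MET, EGFR, AXL, FGFR2, KITLG and FGF2.

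Control clone 2 was the distant clone in 5 of the 12: ADAM9 at 7.16 (others 8.32 to 8.54), SOCS4 at 6.05 (7.44 to 7.69), ST7 at 6.06 (6.28 to 6.32) and POC1B-GALNT4 at 6.50 (7.03 to 7.12) were low there, and VSTM2A at 4.86 (4.63 to 4.66) was high. RWDD4 clone 6 had RWDD4 itself at 9.87 (others 10.42 to 10.46) and FGFR3 at 5.60 (5.33 to 5.35). RWDD4 clone 17 had STAM2 at 7.67 (7.99 to 8.04) and PLPP4 at 8.12 (7.59 to 7.64). HS2ST1 lay at 8.30 in RWDD4 clone 24 (8.43 to 8.45), POM121L12 at 5.84 in RWDD4 clone 5 (5.57 to 5.60), and PROS1 at 4.48 in control clone 4 (4.11 to 4.14).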

How the results depend on the processing

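The 6 genes kept their direction under every alternative run; for FGFR2 the level filter gave no value. Their differences moved by less than the spread between clones except with the within-group axis in the fit (MET 0.29, EGFR 0.46, KITLG 0.95, FGF2 0.46, FGFR2 -0.23, AXL 0.65) and, for FGFR2, after median centring (-0.56) and with the span trend removed (-0.71). With the axis 0 genes rose and 1 fell by limma, 0 of them in the pathway lists or among the neighbours, and 1910 had an unadjusted p under 0.05. There 9 named genes that had passed changed sign: MERTK -0.028, LMTK2 -0.132, NRTN 0.0113, ADAM9 -0.225, ADAM10 -0.0303, HS2ST1 -0.0106, ADAM17 -0.351, SOCS4 -0.024 and HNRNPUL1 -0.0123. After median centring 5765 genes fell, with 22 ligands, 18 coreceptor and processing genes, 14 adaptors and 6 neighbours. With the span trend removed 20 ligands, 18 coreceptor and processing genes, 17 adaptors, 13 feedback genes and 4 neighbours fell, and 8 coreceptor and processing genes rose. The level filter left 1 neighbour that fell. With 1 clone left out, receptors that fell numbered 7 to 12. The causes were not tested. Of 76 genes (RWDD4 and the partner, list and neighbour genes named by rule) 56 passed. Of these, 49 passed under every alternative that gave a value for them, the axis left aside. For KIT, PROS1 and WNT2, which are among the 49, the level filter gave no value. Other named genes, such as GAB1, EPS15, LRIG2, GRB2, FGF8, FGF18, FGF19, the markers and the nearest profiles, were not run gene by gene. No paired analysis was possible because the groups share only the clone number 5. Signal over background was not analysed here, which limits what is said of dim genes such as FGFR2, KIT and HGF. The same limit holds for genes near or below the level of KLK3 and KLK2, such as FGF4, FGF8, FGF18, FGF19, FGFR3, BTC and PROS1. For KITLG it holds in the control clones.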
